A study of Mus musculus with 9 samples.

Results

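Gpnmb, the 4 MiT/TFE transcription factors (Mitf, Tfeb, Tfe3 and Tfec) and the folliculin complex (Flcn, Fnip1 and Fnip2) were followed in RNA-Seq of mouse macrophages, 8 genes of the 53465 in the count table. Gpnmb was chosen by its level in these libraries, as the most abundant transcript after treatment, so its values are given as a description without a test. The other 7 were taken by name as the factors known to drive Gpnmb and lysosomal genes and the proteins that control those factors. These genes and the lists used below were chosen with earlier results of these data known. The cells were bone marrow-derived macrophages (BMDMs) of male wild-type C57BL/6 mice, grown with the macrophage growth factor CSF1 at 50 ng/ml. In the UNX group they were left untreated, and in the CO-CM and PH-CM groups they received medium conditioned by pulmonary artery adventitial fibroblasts of control calves or of calves with hypoxia-induced pulmonary hypertension. Each group had 3 libraries. For the duration of treatment the labels hold both 16 h and 24 h, and the methods of the study give a time between these. The labels name the strain without a substrain, and those methods name it as C57bl6/J. Each medium was a pool from several fibroblast populations, so the replicates repeat the macrophage culture and do not sample separate calves, and the medium of one species acted on cells of another.

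GPNMB is a transmembrane glycoprotein of lysosomes and the cell surface that is abundant in osteoclasts, pigment cells and lipid-loaded macrophages. MITF, TFEB, TFE3 and TFEC form one family of helix-loop-helix leucine zipper factors, which pair with each other and bind E-box sequences in the promoters of lysosomal, autophagy and pigment genes. When amino acids are plentiful, Rag GTPases on the lysosome hold these factors for phosphorylation by mTORC1, and phosphorylated factors stay in the cytoplasm. Folliculin, with FNIP1 or FNIP2 as its partner, activates RagC and RagD and so keeps the factors out of the nucleus. Transcript levels therefore carry no information on where the factors were in the cell.

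The libraries held between 62017933 and 84314201 reads counted on genes. Macrophage markers were high in every library, with the summed level of the 7 markers (Adgre1, Csf1r, Cd68, Itgam, Fcgr1, Mertk and Lyz2) at 11480 to 12330 CPM in UNX, 18840 to 19780 in CO-CM and 20730 to 22400 in PH-CM. CPM are reads of a gene scaled to one library size, with TMM factors that correct for library composition. Of other cells that express Gpnmb or Mitf strongly, melanocyte markers were absent, with 1 read of Mlana over all libraries and Tyr, Tyrp1, Dct and Sox10 at 0. The mast cell markers Fcer1a, Tpsb2 and Mcpt4 and the neutrophil marker Ly6g were also at 0, and the markers of neutrophils and of dendritic cells summed to at most 3.67 and 0.885 CPM. Fibroblast markers summed to 194 to 245 CPM in UNX, 262 to 314 in CO-CM and 244 to 332 in PH-CM. Most of this was Col1a1, at 99.8 to 133 CPM in UNX, 137 to 161 in CO-CM and 123 to 170 in PH-CM, and Col1a2. The latter had 69.6 to 87.1, 101 to 122 and 90.9 to 118 CPM. Of the 7 markers, 5 were above 1 CPM in some library, and Lum and Thy1 reached no more than 0.0644 and 0.253 CPM. The 6 osteoclast markers, 3 of them above 1 CPM in some library and Calcr at 0, summed to 15.3 to 28.0 CPM in UNX, 35.0 to 54.1 in CO-CM and 46.8 to 66.7 in PH-CM. Most of that sum was Ctsk, while Dcstamp, a fusion gene of osteoclasts, went the other way, from 0.910 to 1.85 CPM in UNX to 0.190 to 0.838 in CO-CM and 0.238 to 0.354 in PH-CM, and Ocstamp had 20 reads in UNX and 4 in each treated group. In each group the library numbered 1 stood farther from the other two than they did from each other, with a chi-square per gene of 21.6 to 57.1 against 10.6 to 17.5. Leaving out the 3 libraries numbered 1 changed no call of the 7 tested genes.

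Gpnmb (ENSMUSG00000029816) lies on the plus strand of chromosome 6 from 49036546 to 49070929 of GRCm38. It held 0.973, 1.25 and 1.27% of all counted reads in the UNX libraries, 2.77, 2.90 and 2.97% in CO-CM and 1.87, 1.96 and 2.08% in PH-CM. No gene had more reads in 5 of the 6 treated libraries, and in PH-CM replicate 1 it was second to the ferritin gene Fth1. In the UNX libraries it ranked 4, 2 and 2 by reads, with the cathepsin gene Ctsb first in each. Its exons are long, and per length it ranked lower. In RPKM, which divides the reads by the length of the exons, it reached 4258, 4446 and 4555 in CO-CM and 2869, 3010 and 3190 in PH-CM, which is the sixth to the eighth place among all genes, against 1494, 1924 and 1947 in UNX. By CPM it stood at 9314, 12273 and 12450 in UNX, 27713, 30018 and 30466 in CO-CM and 18609, 20040 and 21161 in PH-CM. The 3 groups did not overlap, with CO-CM highest and PH-CM in between. The log2 fold change was 1.37 (SE 0.11) for CO-CM against UNX, 0.81 (SE 0.11) for PH-CM against UNX and -0.56 (SE 0.11) for PH-CM against CO-CM. Within libraries of one replicate number, CO-CM stood above UNX by 1.57, 1.29 and 1.29 on the log2 scale, with the widest gap in replicate 1, and PH-CM differed from CO-CM by -0.58, -0.58 and -0.53. The summed macrophage markers, mostly Lyz2, were above UNX in both treated groups and highest in PH-CM, but single markers differed in order. Cd68 was highest in CO-CM, as Gpnmb was, at 2020 to 2340 CPM in UNX, 2960 to 3120 in CO-CM and 2530 to 2680 in PH-CM, whereas Itgam was at 97.5 to 116, 75.7 to 100 and 157 to 189 CPM. The summed osteoclast markers were also above UNX in both treated groups. The part of either set in the level of Gpnmb was not tested. In bulk RNA, fewer cells of a type and less RNA per cell cannot be told apart.

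The promoters of Gpnmb, Fnip1 and Fnip2 are shown for these reasons. Gpnmb is the transcript the genes are grouped around. Fnip2 was nearest to it across libraries by root mean square difference, though not among the nearest genes by Pearson r (both below). Fnip1 alone of the 8 genes held the palindrome CACGTG, the E-box of MiT/TFE factors. Each window is a RefSeq sequence of GRCm38.p6 in the direction of transcription, from 250 bases before to 50 bases after the start site. Gpnmb is at chr6:49036268-49036567 on the plus strand, Fnip1 at chr11:54437929-54438228 on the plus strand and Fnip2 at chr3:79567630-79567929 on the minus strand. Capitals mark matches to the general E-box CANNTG, of which CACGTG is one form.
Gpnmb: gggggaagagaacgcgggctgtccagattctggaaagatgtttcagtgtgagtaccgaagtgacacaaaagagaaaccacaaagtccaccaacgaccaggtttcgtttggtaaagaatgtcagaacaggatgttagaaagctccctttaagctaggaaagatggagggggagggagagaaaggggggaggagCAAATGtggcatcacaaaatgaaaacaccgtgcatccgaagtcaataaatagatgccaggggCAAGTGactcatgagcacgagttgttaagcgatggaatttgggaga
Fnip1: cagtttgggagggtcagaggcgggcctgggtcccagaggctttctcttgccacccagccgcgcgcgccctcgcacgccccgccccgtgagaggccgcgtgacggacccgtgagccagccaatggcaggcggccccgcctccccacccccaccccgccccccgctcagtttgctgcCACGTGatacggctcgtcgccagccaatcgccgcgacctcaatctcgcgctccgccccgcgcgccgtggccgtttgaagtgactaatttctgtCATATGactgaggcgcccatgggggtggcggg
Fnip2: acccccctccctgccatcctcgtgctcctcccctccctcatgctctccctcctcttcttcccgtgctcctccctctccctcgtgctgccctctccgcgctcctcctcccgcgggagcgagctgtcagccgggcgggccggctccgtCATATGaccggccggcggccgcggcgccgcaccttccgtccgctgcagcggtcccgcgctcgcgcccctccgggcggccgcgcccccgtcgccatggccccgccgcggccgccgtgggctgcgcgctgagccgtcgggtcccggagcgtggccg
Gpnmb had CAAATG beginning 58 bases before the start site and CAAGTG beginning 4 bases after it. CACGTG began 75 bases before the start site of Fnip1. All 8 genes matched the table, with 13 windows. On either strand, CANNTG was in 6 of these 13 windows and in 72.3% of all 32851 promoter windows, CACGTG in 1 and in 7.15%, and CATGTG, the E-box form common in pigment genes, in 0 and in 14.2%. The extended forms TCACGTGA and TCATGTG, which contain these, were in 0.974% and 3.77% of all windows and in none of the 13. A match in these letters is no evidence of binding, and sites outside the windows were not searched.

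**Figure D1:**
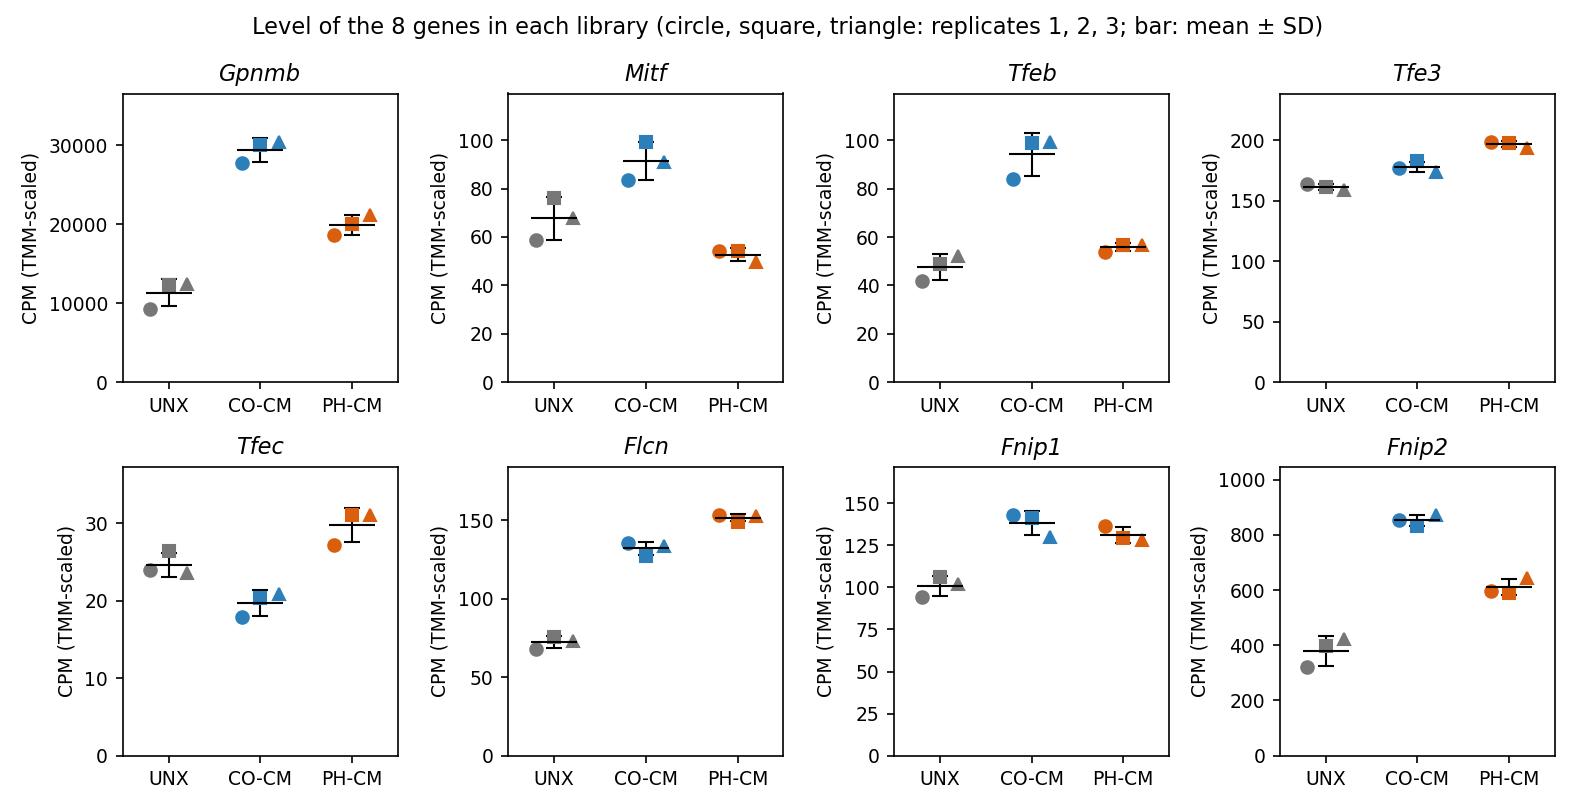
Level of each of the 8 genes in CPM (y axis, from 0) in the 9 libraries by group (x axis). Circles, squares and triangles are replicates 1, 2 and 3, and black bars give the mean ± SD. Gpnmb, Mitf, Tfeb and Fnip2 were highest in CO-CM, Tfe3, Tfec and Flcn in PH-CM, and Fnip1 overlapped between the media.

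All 8 genes passed the filter on low counts. The 7 other than Gpnmb were tested with edgeR's quasi-likelihood test, with the false discovery rate (FDR) taken over all 11950 genes that passed. Calls needed an FDR up to 0.05 together with a fold change of 1.2 or more in either direction. For CO-CM against UNX, 5 of the 7 genes were called higher and 1 lower, where 28.0% of all genes tested were called higher and 28.9% lower. For PH-CM against UNX, 5 were called higher and 1 lower, with 31.3% and 31.7% of all genes. For PH-CM against CO-CM, 1 was called higher and 3 lower, with 12.2% and 15.0% of all genes. The first and second comparisons share the UNX libraries. The genes called were not the same in the first and second comparisons, and each is described in turn.

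Mitf (ENSMUSG00000035158, plus strand of chromosome 6 from 97807052 to 98021349), the master factor of pigment cells that also acts in osteoclasts, rose under CO-CM and fell under PH-CM. It had 58.7, 76.2 and 68.0 CPM in UNX, 83.7, 99.4 and 91.1 in CO-CM and 54.1, 54.4 and 49.7 in PH-CM. All CO-CM libraries lay above and all PH-CM libraries below every UNX library, with UNX replicate 1 close to the PH-CM libraries. The log2 fold change was 0.43 (SE 0.09, edgeR FDR 0.00178) for CO-CM against UNX and -0.36 (SE 0.09, edgeR FDR 0.00498) for PH-CM against UNX. Between the media it was -0.79 (SE 0.09, edgeR FDR 0.000105), so Mitf in PH-CM was at 0.577 of its level in CO-CM. Mast cells also depend on Mitf, and the 5 mast cell markers summed to 1.54 to 3.32 CPM in UNX, 1.73 to 2.36 in CO-CM and 0.290 to 0.396 in PH-CM, mostly Kit, with Fcer1a, Tpsb2 and Mcpt4 at 0 in every library. Their part in the level of Mitf was not tested.

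Tfeb (ENSMUSG00000023990, plus strand of chromosome 17 from 47737030 to 47792419), the factor best known for inducing lysosomal and autophagy genes, rose under CO-CM and was lower under PH-CM than under CO-CM. Its CPM were 41.7, 48.9 and 52.3 in UNX, 84.2, 99.0 and 99.5 in CO-CM and 53.8, 56.8 and 56.6 in PH-CM. CO-CM libraries stood well apart from all others, and PH-CM libraries lay just above UNX replicate 3. The log2 fold change was 0.98 (SE 0.09, edgeR FDR 3.61e-06) for CO-CM against UNX and -0.76 (SE 0.09, edgeR FDR 8.99e-05) for PH-CM against CO-CM. For PH-CM against UNX it was 0.23 (SE 0.09, edgeR FDR 0.0358, 95% interval 0.03 to 0.42), a fold change of 1.17 that did not reach 1.2. This small difference stayed above 0 in all 22 alternatives, at 0.13 to 0.29, while its FDR moved to either side of 0.05 with single libraries. It was 0.13 (edgeR FDR 0.151) without UNX replicate 1, and 0.29 (edgeR FDR 0.0191) and called without UNX replicate 3. The FDR was also above 0.05 without UNX replicate 2, without replicate 2 or replicate 3 of PH-CM, with library size alone and with filterByExpr.

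Tfe3 (ENSMUSG00000000134, plus strand of the X chromosome from 7762560 to 7775202), a close relative of TFEB with overlapping targets, differed by no more than 0.29 on the log2 scale in any comparison. It had 164, 162 and 159 CPM in UNX, 177, 182 and 174 in CO-CM and 199, 198 and 194 in PH-CM. The groups did not overlap, but the steps between them were small. The log2 fold change was 0.14 (SE 0.04, edgeR FDR 0.0082) for CO-CM against UNX and 0.15 (SE 0.04, edgeR FDR 0.0127) for PH-CM against CO-CM, fold changes of 1.10 and 1.11 that were not called. For PH-CM against UNX it was 0.29 (SE 0.04, edgeR FDR 6.04e-05), a fold change of 1.22 just past the threshold. With library size alone in place of TMM it was 0.23 and not called.

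Tfec (ENSMUSG00000029553, minus strand of chromosome 6 from 16833373 to 16898441), the member of the family expressed mainly in myeloid cells, moved opposite to Mitf in each comparison. Its CPM were 24.0, 26.4 and 23.5 in UNX, 17.8, 20.4 and 20.9 in CO-CM and 27.2, 31.0 and 31.0 in PH-CM. Every CO-CM library was below and every PH-CM library above every UNX library. Between the media the log2 fold change was 0.60 (SE 0.08, edgeR FDR 0.000257), a fold change of 1.51 with differences of 0.61, 0.61 and 0.57 within the 3 replicate numbers. Against UNX it was -0.32 (SE 0.08, edgeR FDR 0.00447) for CO-CM and 0.27 (SE 0.08, edgeR FDR 0.0101) for PH-CM. Both of these stood near the threshold. The first was -0.26 and not called without CO-CM replicate 1. The second, a fold change of 1.21, lost its call on leaving out either UNX replicate 1 (0.24) or UNX replicate 3 (0.23). It was 0.25 and also lost when replicate 2 or replicate 3 of PH-CM was left out.

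**Figure D2:**
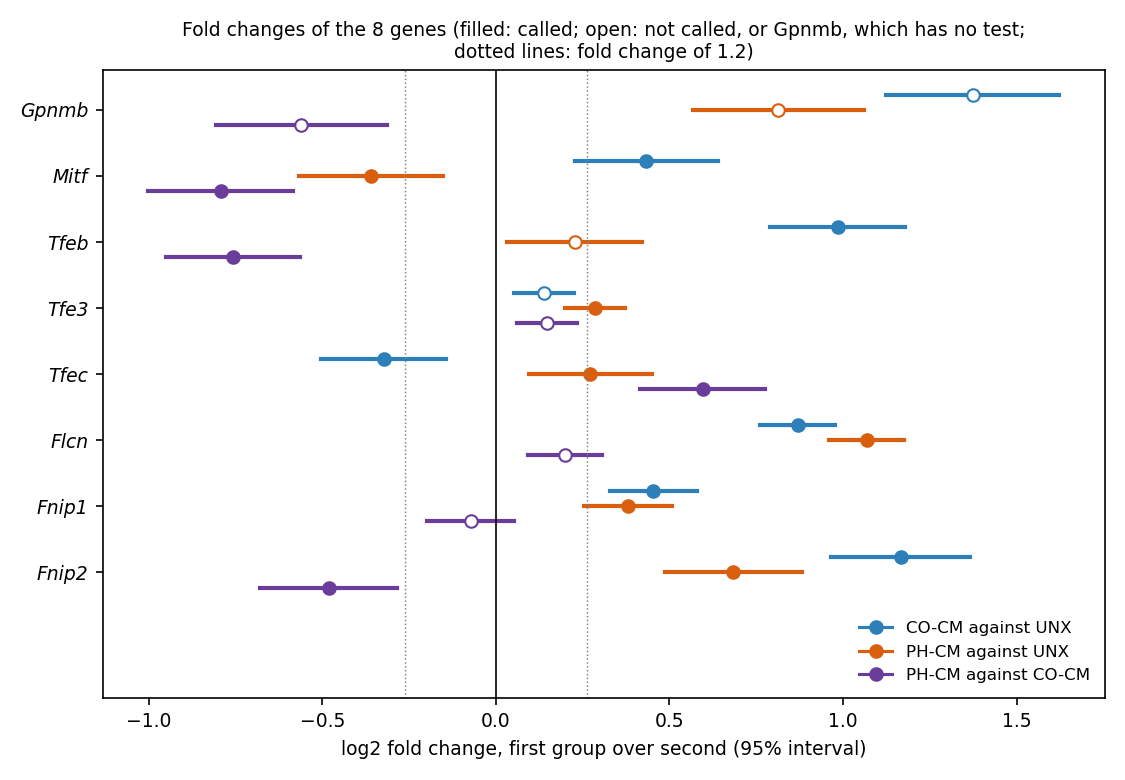
Log2 fold change (x axis) of each of the 8 genes (y axis) in the 3 comparisons, with 95% intervals from the edgeR fit. The intervals of Gpnmb are no test of a difference from 0, because the gene was chosen by its level in these libraries. Filled points were called, open points were not called or belong to Gpnmb, which was not tested, and dotted lines mark a fold change of 1.2. Mitf and Tfec lay on opposite sides of 0 in each comparison, and Fnip1 alone had an interval that crossed 0 between the media.

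Levels of different genes were compared only in RPKM. Tfe3 had the highest level of the 4 factors in each group, at 17.9 ± 0.486 RPKM in UNX, 18.8 ± 0.481 in CO-CM and 21.0 ± 0.513 in PH-CM (SD, n = 3), and Tfec the lowest, at 4.53 ± 0.270, 3.44 ± 0.229 and 5.25 ± 0.316. In between, Mitf stood above Tfeb in UNX and below it in both treated groups. Mitf was at 11.2 ± 1.33 RPKM in UNX, 14.4 ± 0.989 in CO-CM and 8.41 ± 0.471 in PH-CM, and Tfeb at 8.63 ± 0.869, 16.3 ± 1.23 and 9.72 ± 0.153. Within a library the ratio of Mitf to Tfeb ran from 1.19 to 1.43 in UNX, from 0.837 to 0.919 in CO-CM and from 0.803 to 0.919 in PH-CM. Across libraries of CO-CM the ranges of Mitf and Tfeb overlapped, so the order there holds within each library only.

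CO-CM had the largest share of Tfeb and the smallest of Tfec. Tfeb made up 29.3, 30.7 and 32.1% of the summed RPKM of the 4 factors in CO-CM, against 19.0 to 22.2% in UNX and 21.3 to 22.5% in PH-CM. Tfec made up 10.7 ± 0.514% of the sum in UNX, 6.50 ± 0.279% in CO-CM and 11.8 ± 0.815% in PH-CM (SD, n = 3). These shares are described without a test, and UNX and PH-CM overlapped in both. The ratio of Tfeb to Tfec was 1.91 ± 0.250 in UNX, 4.72 ± 0.0730 in CO-CM and 1.85 ± 0.0852 in PH-CM. Mitf took its smallest share in PH-CM, at 19.0 ± 0.810%, with Tfe3 at its largest, 47.3 ± 0.754%. The sum itself was 42.3 ± 1.74 RPKM in UNX, 52.9 ± 2.08 in CO-CM and 44.4 ± 0.611 in PH-CM.

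**Figure D3:**
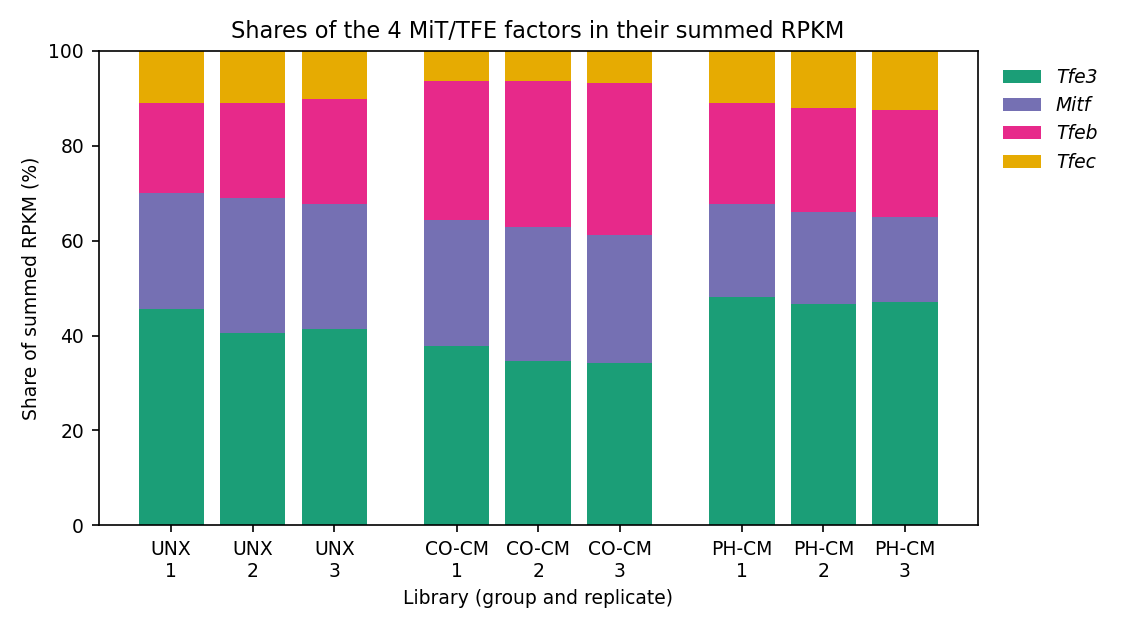
Share of each MiT/TFE factor in the summed RPKM of the 4 factors (y axis, percent) in each library (x axis, group and replicate). The Tfeb segment was 29.3 to 32.1% in CO-CM and at most 22.5% in the other libraries, and the Tfec segment was smallest in CO-CM.

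Flcn (ENSMUSG00000032633, minus strand of chromosome 11 from 59791408 to 59810016) encodes folliculin, the GTPase-activating protein of RagC and RagD. It rose under both media. Its CPM were 68.0, 75.7 and 73.1 in UNX, 135, 127 and 134 in CO-CM and 153, 149 and 153 in PH-CM. The log2 fold change was 0.87 (SE 0.05, edgeR FDR 1.26e-07) for CO-CM and 1.07 (SE 0.05, edgeR FDR 1.88e-08) for PH-CM. Between the media it was 0.20 (SE 0.05, edgeR FDR 0.00817), with no overlap of the groups but a fold change of 1.15 that was not called.

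The partners of folliculin differed from each other. Fnip2 (ENSMUSG00000061175, minus strand of chromosome 3 from 79455974 to 79567796) had 320, 396 and 423 CPM in UNX, 854, 832 and 871 in CO-CM and 598, 591 and 643 in PH-CM. The groups did not overlap, and their order was that of Gpnmb. Fnip2 rose by 1.17 (SE 0.09, edgeR FDR 1.3e-06) on the log2 scale under CO-CM and by 0.68 (SE 0.09, edgeR FDR 4.68e-05) under PH-CM, and between the media it differed by -0.48 (SE 0.09, edgeR FDR 0.0018). Fnip1 (ENSMUSG00000035992, plus strand of chromosome 11 from 54438199 to 54518235) had 94.2, 106 and 102 CPM in UNX, 143, 141 and 130 in CO-CM and 136, 129 and 128 in PH-CM. It rose under both media, by 0.45 (SE 0.06, edgeR FDR 4.37e-05) under CO-CM and by 0.38 (SE 0.06, edgeR FDR 0.000124) under PH-CM. Between the media the libraries of Fnip1 overlapped, and the log2 difference was -0.07 (95% interval -0.20 to 0.05, edgeR FDR 0.343). Per length Fnip2 was the more abundant partner, with a ratio to Fnip1 of 3.20 ± 0.323 in UNX, 5.27 ± 0.382 in CO-CM and 3.96 ± 0.282 in PH-CM (SD, n = 3, RPKM). Genes that overlap Mitf, Fnip1 and Fnip2 had at most 116 reads over all libraries, against at least 44399 for the member.

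Of all genes tested, Fnip2 had the pattern nearest to that of Gpnmb, with a root mean square difference of 0.101 in log2 CPM centred over the 9 libraries (Pearson r 0.996). It was followed by Als2cl (0.105), the lysosomal phospholipase D family gene Pld3 (0.105), the isovaleryl-CoA dehydrogenase gene Ivd and 4930589L23Rik (0.118). Pld3, the most abundant of these, had 568 ± 71.7 CPM in UNX, 1341 ± 68.2 in CO-CM and 1078 ± 49.7 in PH-CM (SD, n = 3). The genes nearest to Tfec were the sorting nexin genes Snx8 (0.0775) and Snx6 (0.0834), then B4galt5 (0.0840), Sulf2 (0.0843) and Slc25a15 (0.0843). Snx8 had 303 ± 14.5 CPM in UNX, 238 ± 3.24 in CO-CM and 359 ± 21.4 in PH-CM. The 9 libraries fall into 3 groups, so nearness rests mainly on 3 group means. Ranked by Pearson r, none of the 5 genes for Gpnmb and only Snx6 for Tfec remained among the nearest 5.

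**Figure D4:**
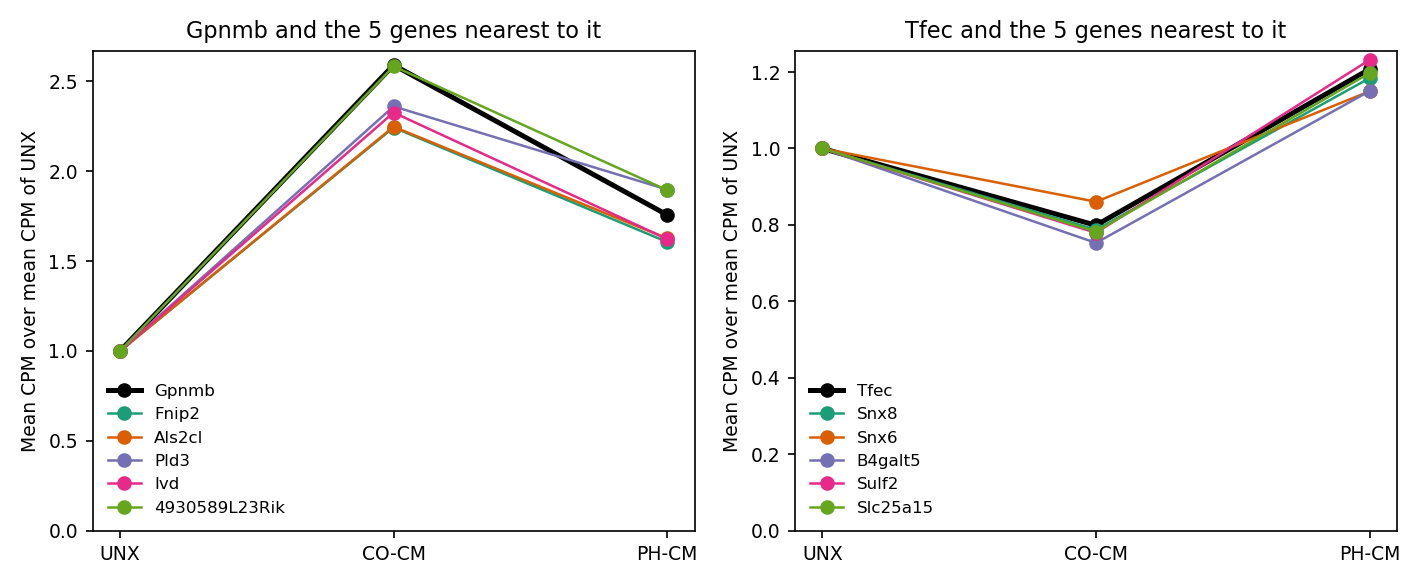
Mean CPM of each gene divided by its mean in UNX (y axis, from 0) in the 3 groups (x axis), for Gpnmb and its 5 nearest genes on the left and Tfec and its 5 nearest on the right. Genes on the left peaked in CO-CM, and genes on the right were lowest in CO-CM and highest in PH-CM.

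Lysosomal genes known as TFEB targets through CLEAR elements, a list of 57 genes that all passed the filter, were mostly higher under both media. Under CO-CM 46 rose and 0 fell (80.7% and 0%, against 28.0% and 28.9% of all genes tested), with a median log2 fold change of 0.56 against 0.00024 over all genes tested. Under PH-CM 40 rose and 2 fell (70.2% and 3.51%, against 31.3% and 31.7%), with a median of 0.49 against 0.00719. Between the media 3 were higher and 9 lower in PH-CM (5.26% and 15.8%, against 12.2% and 15.0%), so that the share lower was near that of all genes, with a median of -0.09 against -0.0064. The other 45 were not called. Without a threshold on the fold change these counts between the media were 6 and 17. The shares of all genes given here were taken with that threshold and are no background for the 6 and 17.

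Differences between the media within this list went both ways. Atp6v0a1, a subunit of the proton pump, was at 0.10 on the log2 scale under CO-CM (not called), -0.72 under PH-CM and -0.82 between the media (edgeR FDR 0.000199), with 693 ± 104 CPM in UNX, 742 ± 67.6 in CO-CM and 421 ± 23.5 in PH-CM (SD, n = 3). Galns, a sulfatase of keratan sulfate breakdown, was at 0.61, -0.10 (not called) and -0.72. In the other direction, the autophagy gene Uvrag was at 0.07 (not called), 0.70 and 0.63, the heparan sulfatase gene Sgsh at 0.77, 1.33 and 0.56, and the sialidase gene Neu1 at 0.43, 0.93 and 0.50. The largest increases of the list under PH-CM were those of the cathepsin gene Ctsf and the lysosomal amino acid transporter gene Slc36a1, each of 1.42 against UNX. Slc36a1 rose by 1.24 under CO-CM, and Ctsf, called there too, had 3.89 ± 0.198 CPM in UNX, 11.0 ± 1.12 in CO-CM and 10.4 ± 0.886 in PH-CM (SD, n = 3). Between the media Ctsf was at -0.07 and Slc36a1 at 0.18, neither called.

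Of 23 genes of lysosomal nutrient sensing, through which folliculin and amino acids act on the factors, 5 rose and 3 fell under CO-CM, 9 rose and 4 fell under PH-CM, and 3 were higher and 4 lower in PH-CM than in CO-CM. The medians were 0.20, 0.15 and -0.02. The shares higher and lower were 21.7% and 13% under CO-CM, below the 28.0% and 28.9% of all genes, 39.1% and 17.4% under PH-CM (all genes 31.3% and 31.7%) and 13% and 17.4% between the media, near the 12.2% and 15.0% of all genes. The Rag GTPases did not move together. Rragd, which is also in the CLEAR list and is a substrate of folliculin, rose by 1.42 under CO-CM and 1.31 under PH-CM, from 25.7 ± 4.66 CPM in UNX to 69.0 ± 6.63 and 63.7 ± 2.30 (SD, n = 3). Rragb had low counts, with 1.74 ± 0.278 CPM in UNX, 0.941 ± 0.148 in CO-CM and 0.513 ± 0.0617 in PH-CM (SD, n = 3). Without its UNX libraries it would not have passed the filter on low counts. Its log2 differences are therefore a description only, at -0.88 and -1.75 against UNX and -0.87 between the media. Rragb is among the genes counted above as lower in each comparison. Rraga was at 0.23 and -0.19, neither called, and at -0.42 between the media (edgeR FDR 7.3e-05).

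Upstream of the Rag GTPases, the lysosomal arginine sensor gene Slc38a9 rose by 0.73 and 0.77 and was at 0.04 between the media (not called). The sestrins, leucine- and stress-responsive inhibitors of mTORC1, differed from each other. Sesn1 rose by 0.84 under CO-CM, was at -0.01 under PH-CM (not called) and differed by -0.85 between the media. Sesn2 was at -0.20 (not called), 0.29 and 0.48, and Sesn3 at 0.17 (not called), 0.45 and 0.28. Rptor, the subunit of mTORC1 that the Rag GTPases bind, fell by 0.38 under CO-CM, was at -0.04 under PH-CM (not called) and was higher in PH-CM by 0.34. Rheb, the GTPase that activates mTORC1, fell by 0.32 and 0.40, and Tbc1d7, a subunit of the complex that inhibits Rheb, was at -0.26 (not called) and fell by 0.40. Between the media Rheb was at -0.08 and Tbc1d7 at -0.15, neither called.

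Known MITF targets of osteoclasts and pigment cells were mostly below the filter on low counts, which 9 of 22 passed. Pmel, the paralog of Gpnmb, was among those that did not. Under CO-CM 5 rose and 3 fell, under PH-CM 4 rose and 3 fell, and between the media 0 were higher and 2 lower in PH-CM. The medians were 0.34, 0.26 and -0.09. Of so few genes, the 33.3% that were lower against UNX under either medium were near the 28.9% and 31.7% of all genes, and 55.6% and 44.4% were higher (all genes 28.0% and 31.3%). Between the media 0% were higher and 22.2% lower (all genes 12.2% and 15.0%). The osteoclast genes Acp5 (tartrate-resistant phosphatase) and Ctsk (cathepsin K) rose under both media and were at 0.18 and 0.37 between them (not called). Ctsk rose by 1.07 under CO-CM and 1.44 under PH-CM. Acp5 had few reads, with 1.03 ± 0.198 CPM in UNX, 2.80 ± 0.715 in CO-CM and 3.17 ± 1.14 in PH-CM (SD, n = 3, edgeR FDR 0.00143 and 0.000565 against UNX). Both genes are among the osteoclast markers, of which Dcstamp and Ocstamp were lower in the treated groups. Atp6v0d2, a proton pump subunit of osteoclasts that is also in the CLEAR list, rose by 1.81 (SE 0.35, edgeR FDR 0.000984) and 0.93 (SE 0.35, edgeR FDR 0.0305). Between the media it was at -0.87 (edgeR FDR 0.0698, not called). It varied between replicates, with 155 ± 74.3 CPM in UNX, 542 ± 138 in CO-CM and 296 ± 59.6 in PH-CM (SD, n = 3). Against UNX, the survival gene Bcl2 was lower at -2.28 under CO-CM and -3.17 under PH-CM, the melanosome transport gene Rab27a at -1.08 and -1.73 and the cell cycle kinase gene Cdk2 at -1.22 and -1.10. Bcl2 and Rab27a were also lower in PH-CM than in CO-CM, at -0.89 (edgeR FDR 0.0207) and -0.65 (edgeR FDR 0.0101), and Cdk2 was at 0.12 (not called). Bcl2 and Rab27a had few reads in the treated groups. Bcl2 had 5.88 ± 0.561 CPM in CO-CM and 3.17 ± 1.59 in PH-CM, and Rab27a 2.07 ± 0.359 and 1.31 ± 0.165 (SD, n = 3).

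Genes seen with Gpnmb in lipid-laden macrophages, 19 in all, had a median farther from 0 between the media than the other lists. Clcn7 and Atp6v0d2 are in both the CLEAR and the MITF lists, and Cd63, Ctsb and Ctsd in both the CLEAR and this list. Under CO-CM 12 rose and 1 fell (median 0.67), under PH-CM 8 rose and 8 fell (median 0.18), and 2 were higher and 12 lower in PH-CM than in CO-CM (median -0.56). The medians over all genes were 0.00024, 0.00719 and -0.0064. The shares higher and lower were 63.2% and 5.26% under CO-CM (all genes 28.0% and 28.9%). They were 42.1% each under PH-CM (all genes 31.3% and 31.7%). Of the list, 63.2% were lower between the media (all genes 15.0%). The 2 of 19 genes higher between the media were a share just below the 12.2% of all genes. Lpl, which encodes lipoprotein lipase, had 1961 ± 385 CPM in UNX, 1481 ± 577 in CO-CM and 163 ± 54.4 in PH-CM (SD, n = 3), and differed by -3.19 on the log2 scale between the media (edgeR FDR 5.43e-05). It fell by 3.59 under PH-CM and was at -0.41 under CO-CM (not called). The integrin gene Itgax was at 1.00 (not called), -1.87 and -2.87, and the elastase gene Mmp12 at -0.01 (not called), -2.42 and -2.41. Both varied widely between replicates, with 47.5 ± 24.6 CPM of Itgax and 472 ± 254 CPM of Mmp12 in CO-CM (SD, n = 3). The cholesterol exporter gene Abca1 was at 0.19 under CO-CM (not called), rose by 2.20 under PH-CM and was higher there than in CO-CM by 2.01 (edgeR FDR 3.75e-05). Ctsl, which encodes cathepsin L, rose by 0.75 and 1.88 and was higher in PH-CM by 1.14. Apoe rose by 1.86 and 2.08 and was at 0.22 between the media (not called).

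**Figure D5:**
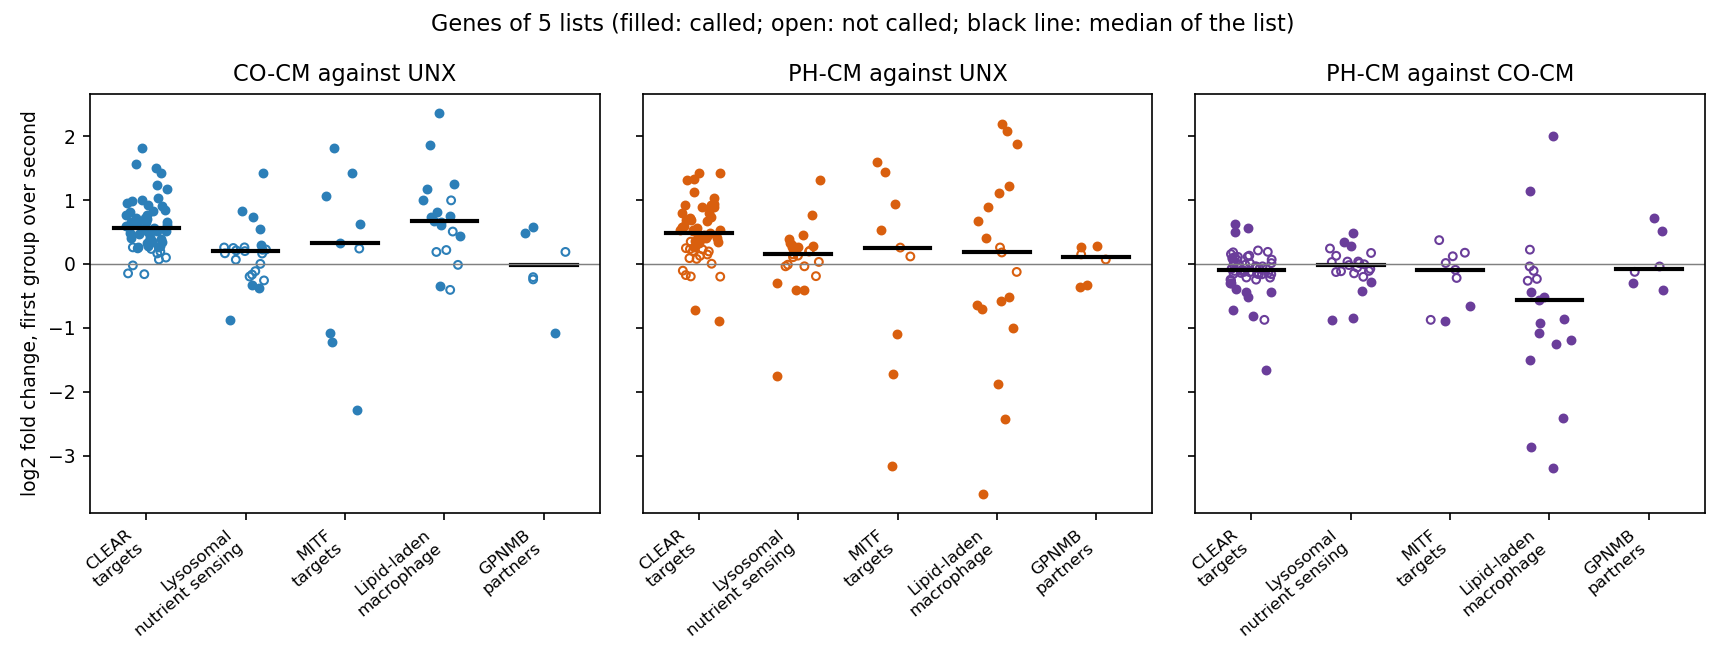
Log2 fold change (y axis) of the genes tested in 5 lists (x axis) in the 3 comparisons (panels). Filled points were called, open points were not, and black lines are list medians. CLEAR targets lay mostly above 0 against UNX and close to 0 between the media, where the lipid-laden macrophage genes had a median of -0.56.

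Of the paralog, sheddases and binding partners of GPNMB, 6 of 7 passed the filter, with Pmel below it. Under CO-CM 2 rose and 1 fell, under PH-CM 2 rose and 2 fell, and between the media 2 were higher and 2 lower in PH-CM. The medians were -0.01, 0.11 and -0.08. For PH-CM against UNX, 33.3% in each direction was near the 31.3% and 31.7% of all genes. The shares were 33.3% and 16.7% under CO-CM (all genes 28.0% and 28.9%) and 33.3% each between the media (12.2% and 15.0%), all over 6 genes. Adam17, a protease that sheds cell surface proteins, rose by 0.58 and 0.28 and differed by -0.30 between the media. The receptor genes Sdc4 and Cd44 were higher in PH-CM than in CO-CM, by 0.71 and 0.51. Against UNX, Sdc4 fell by 1.08 under CO-CM and 0.37 under PH-CM, and Cd44 was at -0.24 (not called) and rose by 0.27. The integrin genes Itga5 and Itgb1 were at 0.48 and -0.21 (the second not called) under CO-CM and at 0.07 (not called) and -0.33 under PH-CM. Between the media Itga5 differed by -0.41 and Itgb1 was at -0.12 (not called).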

How the data were processed

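The authors cleaned the reads with AfterQC, mapped them with STAR to the mouse genome GRCm38 and ran featureCounts 1.6.2, and they deposited the counts of reads per gene without scaling. The deposited RPKM values are these counts divided by exon length and library total. Of the counts under 20, 81.4 to 83.8% per library were even, as when both mates of a pair are counted. The options given for featureCounts name neither strand nor read pairs, so by default each mate was counted on either strand, and reads of a gene and an antisense partner cannot be told apart. The authors' tables of fold changes and p-values were not used. The counts were fitted with edgeR 4.0.16 (R 4.3.3): genes above 1 CPM in at least 3 libraries (11950), TMM, one quasi-likelihood fit of all 9 libraries with a mean per group, and Benjamini-Hochberg adjustment over all genes tested. Scripts were tested on simulated data. Libraries were grouped by their labels. With 3 libraries against 3, an exact permutation test cannot go below 0.1.

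Libraries with the same replicate number deviated together (r from 0.276 to 0.484 over 9 pairs), and the study repeated its experiment, so the numbers were taken to pair libraries. The main fit held no term for the number, so the SEs, intervals and FDRs in the Results do not use the pairing. Calls of a fit with the replicate block are given below. No 2 libraries of a group agreed within sampling noise. Coordinates are from GENCODE vM21 and promoters from RefSeq. The genes and lists were chosen with earlier results of these data known. Beside the 8 genes, the text names from each list up to 3 called genes that rose most and 3 that fell most for PH-CM against CO-CM and against UNX, and the 5 genes nearest to Gpnmb and to Tfec. A result that this rule names is not reported here. Of the 53465 gene identifiers, 53274 matched reference names. Alternatives were other scaling factors, filters and tests (DESeq2 1.42.0 among them), fits of 2 groups, the replicate block, other fold thresholds, counts divided by 2, and each library left out. Leaving out all libraries numbered 1 was added after seeing the data.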

Additional observations from a re-analysis of the deposited data

How the results depend on the processing

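The alternatives were run for the fold changes and calls of the 8 genes, the CLEAR counts, and the counts and median of all genes. Mean RPKM and the nearest genes each had an alternative of their own. No fold change of the 8 genes changed sign. The other lists and the single genes named from any list were not rerun. At a fold change threshold of 2 the genes called fell to 717 higher and 938 lower (CO-CM against UNX), 982 and 1171 (PH-CM against UNX) and 336 and 276 (PH-CM against CO-CM). Of the 7 tested members, 1 was then called higher and 0 lower for CO-CM against UNX (Fnip2), 1 and 0 for PH-CM against UNX (Flcn), and none in either direction (0 and 0) between the media. Of the CLEAR genes, 8 were higher for CO-CM and 6 for PH-CM against UNX at that threshold, and 0 were higher and 1 lower between the media. Without a fold threshold 2 CLEAR genes were lower for CO-CM and 5 for PH-CM against UNX, and 3 members, Tfec, Tfe3 and Flcn, were called higher between the media. The shares of all genes in the Results were taken at a fold change of 1.2 and are no background for these counts. For PH-CM against UNX, 3 members were called higher with library size alone, with no filter and with filterByExpr, since Tfec and Tfe3 dropped below a fold change of 1.2. For CO-CM against UNX, 0 were called lower with upper-quartile factors. Leaving out 1 library at a time gave 0 to 1 called lower in that comparison, 0 without CO-CM replicate 1, where Tfec was lost, and 4 to 5 called higher for PH-CM against UNX, the other counts of members staying as given. Scaling moved the median of all genes by less than 0.1.

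With the replicate number as a replicate block, the paired fit called 5 members higher and 1 lower for CO-CM against UNX, 5 and 1 for PH-CM against UNX and 1 and 3 for PH-CM against CO-CM, so it changed no call of a member. Each library correlated best with its own number in 9 of 9 cases.

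Limits: counts of low genes rest on fewer fragments than reads. Transcript levels do not show protein, cleavage of GPNMB or the location of the factors. Isoforms of Mitf and Tfeb from different start sites are summed in one count. The media came from pools, and bovine medium acted on mouse cells.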
